A study of Mus musculus with 3 samples.

Results

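The glycolysis genes described here are the glucose transporter gene *Slc2a1* and 9 enzyme genes, *Hk2*, *Aldoa*, *Tpi1*, *Gapdh*, *Pgk1*, *Pgam1*, *Eno1*, *Pkm* and *Ldha*. They were chosen by name and are 10 of the 32285 gene entries of each count matrix. *Aldoa* has a second entry, which held 0 UMIs in every library and was not used. The level of each gene was read in single splenic B cells as unique molecular identifiers (UMIs, each standing for 1 captured RNA molecule), summed over the cells of a class and divided by the UMIs of all genes in those cells. It is given as counts per 1000000 UMIs (CPM).

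Splenic B cells were sequenced 10 days after 1 intraperitoneal dose of sheep red blood cells (SRBCs) given to all mice. The 3′RR-*BCL2* library came from mice carrying a randomly integrated human *BCL2* cassette, with the P1 and P2 promoters of *BCL2*, under the core 3′ regulatory region of the IgH locus. The Igκ-*BCL2* library came from mice with that cassette knocked in at the Igκ locus, in place of the Jκ segments and just upstream of the Eκ enhancer. The WT library carried neither, and the strains were on a mixed B6/129 background. Neither the zygosity of the Igκ-*BCL2* mouse used here nor the age of the mice is given in the labels. The methods describe magnetic negative selection of B cells for all 3 sets, whereas the labels call the WT sample sorted B cells and both BCL2 samples cells of whole tissue. There was 1 library per genotype, so no difference has a replicate check. All intervals are 95% exact Poisson intervals and cover counting error only. They do not cover differences between mice, nor the clustering of a gene's UMIs in a few cells.

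Glycolysis splits glucose into pyruvate, yielding ATP and building blocks for nucleotides, lipids and amino acids. Resting B cells use little glucose, and their uptake increases after antigen receptor and costimulatory signals. Germinal center (GC) B cells alternate between rapid division and selection, and plasma cells use sugar in addition to glycosylate the antibodies they secrete. Several of the enzyme genes are known targets of HIF-1, which binds DNA at the core ACGTG, and of MYC, which binds the E-box CACGTG.

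Within the 250 bases before the RefSeq transcription start (GRCm38.p6), ACGTG on either strand was present in 5 of the 10 genes, *Slc2a1*, *Hk2*, *Pgk1*, *Pgam1* and *Ldha*, against 16.5% of 27025 gene windows of the same length. CACGTG, which contains ACGTG on both strands, was present only in *Ldha* among the 10, against 6.04% of all windows. Stretches of 60 bases are shown for 4 of these 5 genes, which stand for separate steps of the pathway. They are a transporter gene, the first enzyme gene, an ATP-producing enzyme gene and the last enzyme gene. *Pgam1*, which also holds ACGTG, is not shown. Capitals mark ACGTG or its reverse complement CACGT. A match is a string of letters and not a measured binding site. The stretches are *Ldha* at chr7:46845742-46845801 (+), *Hk2* at chr6:82774475-82774534 (−), *Slc2a1* at chr4:119108681-119108740 (+) and *Pgk1* at chrX:106186941-106187000 (+). The *Ldha* stretch and the end of the *Slc2a1* stretch lie inside the GENCODE gene spans given below, which start further upstream.
Ldha: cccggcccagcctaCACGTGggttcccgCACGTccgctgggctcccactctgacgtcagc
Hk2: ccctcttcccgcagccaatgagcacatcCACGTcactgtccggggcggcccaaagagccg
Slc2a1: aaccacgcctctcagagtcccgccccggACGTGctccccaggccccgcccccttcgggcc
Pgk1: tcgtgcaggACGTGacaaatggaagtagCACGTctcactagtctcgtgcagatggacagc

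The matrices held 7579 barcodes for 3′RR-*BCL2*, 7034 for Igκ-*BCL2* and 11269 for WT, of which 6561, 6242 and 9932 passed the cell filters with medians of 5291, 4838 and 5031 UMIs. The 3′RR-*BCL2* library contained *Xist* RNA and almost no *Ddx3y* RNA, the reverse of both other libraries, so in comparisons of 3′RR-*BCL2* with either of them genotype and sex cannot be told apart. Igκ-*BCL2* and WT were alike in both genes. Between 31 and 40 barcodes of each library also occurred in another. B cell markers summed to 1770 to 7522 CPM in every class and library. T cell markers summed to at most 5.71, NK markers to at most 9.85 and macrophage markers to at most 4.27 CPM, except for 51.6 CPM of macrophage markers in WT activated-like cells, nearly all of them *Lyz2*, whose part in the activated-like values was not tested. Erythroid markers summed to between 0 and 68.0. Doublets were not removed.

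Cells were put into 5 classes by how many markers of fixed lists they contained, none of which is a glycolysis gene. Plasma-like cells had UMIs of at least 7 of 12 plasma cell markers and numbered 20 for 3′RR-*BCL2*, 19 for Igκ-*BCL2* and 10 for WT. GC-like cells had at least 3 of 10 GC markers. With at least 4 of 10 proliferation markers they were called dividing (121, 23 and 48 cells), and with at most 1 non-dividing (687, 347 and 44 cells). Activated-like cells had at least 4 of 10 activation markers (2029, 1501 and 3661 cells). Resting-like cells had at least 4 of 8 resting markers and at most 1 of each other list (404, 642 and 832 cells). The remaining 3147, 3630 and 5318 cells were not classed, and 167, 91 and 25 GC-like cells lay between dividing and non-dividing. The main cell filter left out many dividing GC-like cells, and its upper limits on genes and UMIs did not apply to plasma-like cells. A looser filter took at least 500 genes and up to 15% mitochondrial UMIs, without upper limits or a ribosomal minimum. With it dividing GC-like cells numbered 203, 39 and 98, with medians of 12500, 10026 and 12464.5 UMIs. These classes are ranges of marker counts, not cell types with sharp borders. For example, 237 of the 3′RR-*BCL2*, 131 of the Igκ-*BCL2* and 26 of the WT cells sat exactly at the GC minimum of 3 markers. Marker counting favours deep cells, and the median UMI count was 10711, 9274 and 9861.5 in dividing GC-like cells, against 3698, 3468 and 3616 in resting-like cells. In activated-like cells it was 6498, 6405 and 6635. Activated-like cells also held a median of 7 of the 8 resting markers in each library, against 6, 6 and 7 in resting-like cells. Activated-like cells were therefore deeper than resting-like cells and had not lost the resting markers.

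Summed over the 10 genes, glycolysis RNA was highest in dividing GC-like cells of all 3 libraries, and lowest in resting-like cells. Dividing GC-like cells stood at 2343 CPM (2260.1 to 2429) for 3′RR-*BCL2*, 2559 (2357 to 2773) for Igκ-*BCL2* and 2546 (2403 to 2696) for WT. Non-dividing GC-like cells stood at 1503 (1469.6 to 1537), 1360.1 (1316 to 1405) and 1639 (1515 to 1771) in the same libraries. Activated-like cells stood at 1041 (1025 to 1057), 991 (972 to 1009.8) and 1020.1 (1008 to 1032). Resting-like cells stood at 847 (802 to 895), 757 (722 to 793) and 767 (736 to 798). These 4 classes kept this order in all 3 libraries. The log2 ratio of dividing GC-like over resting-like cells was 1.47 (1.37 to 1.56) for 3′RR-*BCL2*, 1.76 (1.62 to 1.89) for Igκ-*BCL2* and 1.73 (1.63 to 1.83) for WT. It was 0.83, 0.85 and 1.10 for non-dividing GC-like cells and 0.30, 0.39 and 0.41 for activated-like cells. Plasma-like cells varied most between libraries and are described separately, because 1 cell in each library held much of their glycolysis RNA.

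**Figure D1:**
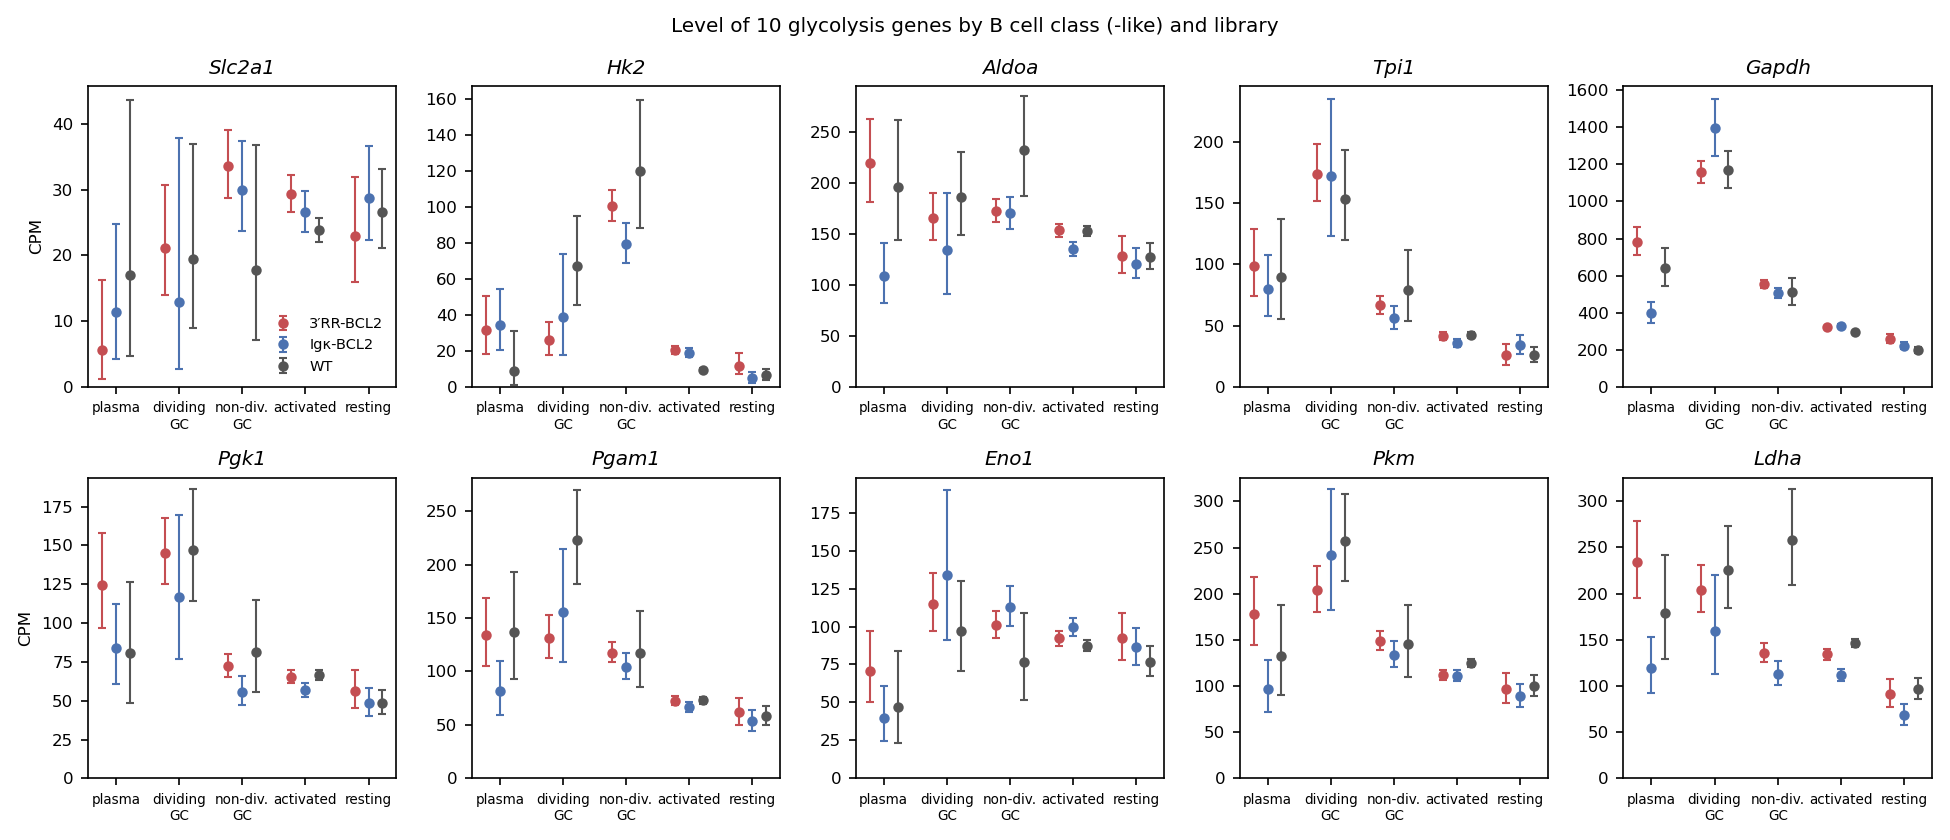
CPM (linear axes from 0, a scale for each gene) of each of the 10 glycolysis genes in the 5 marker-defined classes, with 1 point per library and bars for 95% exact Poisson intervals. *Gapdh* and *Tpi1* stood highest in dividing GC-like cells of all 3 libraries, and *Hk2* stood highest in non-dividing GC-like cells of all 3.

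The genes did not share 1 pattern. In 3′RR-*BCL2* 5 of the 10 stood highest in dividing GC-like cells, 2 in non-dividing GC-like cells and 3 in plasma-like cells. In Igκ-*BCL2* 7 stood highest in dividing and 3 in non-dividing GC-like cells. In WT 6 stood highest in dividing GC-like cells, 3 in non-dividing GC-like cells and 1, *Slc2a1*, in resting-like cells. Many neighbours in these orders overlapped within counting error. For *Gapdh*, however, every step in the order of the 5 classes exceeded it in all 3 libraries with all cells included. The place of plasma-like cells in that order rested on single cells. Without the cell with the most *Gapdh* UMIs in each class, left out after seeing the data, plasma-like cells stood at 219 CPM in Igκ-*BCL2*. Resting-like cells there stood at 220. Likewise they stood at 381 in WT, below non-dividing GC-like cells at 487, but at 630 in 3′RR-*BCL2*, above non-dividing GC-like cells at 550.

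A gene was counted as higher or lower when its ratio passed 1.5-fold, among genes with at least 20 UMIs in either class. In dividing GC-like over resting-like cells, 7 of 10 glycolysis genes were higher in 3′RR-*BCL2*, where 27% of all genes so measured were higher. The count was 7 of 9 in Igκ-*BCL2*, against 23.8% of all genes, and 7 of 10 in WT, against 22.1%. *Tpi1*, *Gapdh*, *Pgk1*, *Pgam1*, *Pkm* and *Ldha* were counted in all 3 libraries. The median log2 ratio of the glycolysis genes was 1.11, 1.26 and 1.48, against 0.04, −0.13 and −0.11 for all genes. In non-dividing GC-like over resting-like cells, 5 of 10 were higher for 3′RR-*BCL2* (16.9% of all genes), 5 of 10 for Igκ-*BCL2* (14.4%) and 7 of 10 for WT (14.7%). *Hk2*, *Tpi1*, *Gapdh* and *Pgam1* were counted in all 3. The median log2 ratio was 0.60, 0.65 and 0.93, against 0.04, −0.00 and −0.08 for all genes. In activated-like over resting-like cells, 2 of 10 were higher in each library, against 11.6% of all genes for 3′RR-*BCL2*, 9.19% for Igκ-*BCL2* and 10.4% for WT. The 2 were *Hk2* and *Tpi1* for 3′RR-*BCL2*, *Hk2* and *Ldha* for Igκ-*BCL2*, and *Tpi1* and *Ldha* for WT. This last count depended on the marker minimum, and was 0, 1 and 0 with 1 marker fewer. It was 4, 6 and 7 with at least 6 activation markers, a minimum chosen after seeing the data. Activated-like cells were also deeper and still held most resting markers. These counts therefore compare ranges of marker counts, and not fully activated with resting B cells.

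**Figure D2:**
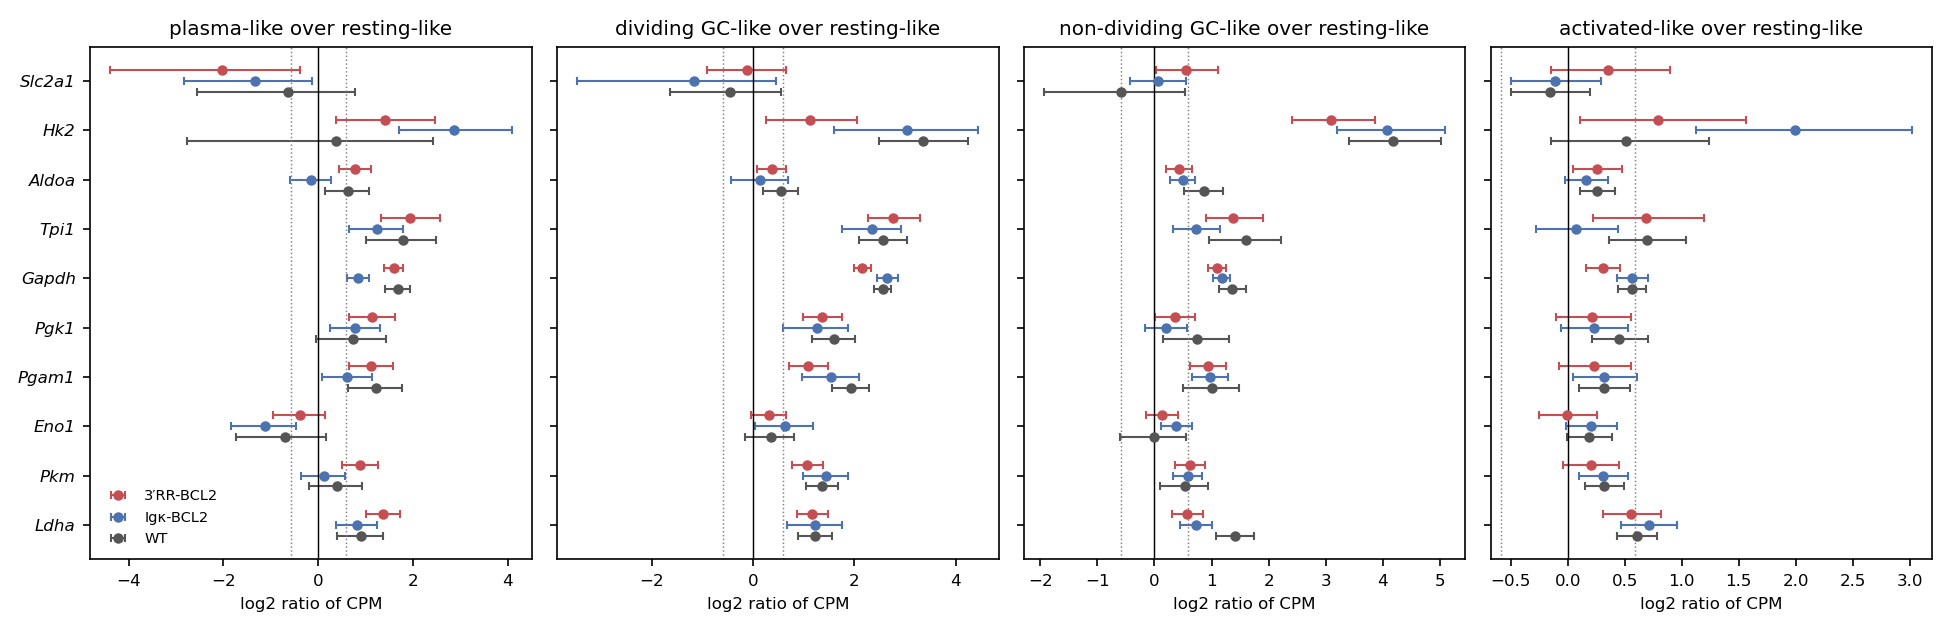
Log2 ratio of each glycolysis gene in each class over resting-like cells of the same library, with 95% intervals of the ratio of 2 Poisson counts and dotted lines at 1.5-fold. The dividing GC-like ratios of *Tpi1* (2.77, 2.34 and 2.56) and *Gapdh* (2.16, 2.65 and 2.56) and the non-dividing GC-like ratios of *Hk2* (3.09, 4.07 and 4.19) lie above 1.5-fold in all 3 libraries.

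*Slc2a1* (chr4:119108711-119137983, + strand, GRCm38 with GENCODE vM21 here and below) encodes GLUT1, which carries glucose across the plasma membrane. Its level in dividing GC-like cells was 21.1 CPM (13.9 to 30.7) for 3′RR-*BCL2*, 12.9 (2.67 to 37.8) for Igκ-*BCL2* and 19.5 (8.90 to 36.96) for WT. In resting-like cells it was 23.0 (16.0 to 32.0), 28.8 (22.3 to 36.6) and 26.6 (21.2 to 33.1). Transporter RNA therefore did not stand higher in dividing GC-like than in resting-like cells in any library, with log2 ratios of −0.12 (−0.90 to 0.64), −1.16 (−3.47 to 0.45) and −0.45 (−1.63 to 0.54). In non-dividing GC-like cells it was 33.7 (28.8 to 39.1), 30.0 (23.8 to 37.4) and 17.8 (7.17 to 36.8), and only the 3′RR-*BCL2* ratio over resting-like cells, 0.55 (0.02 to 1.12), had an interval above 0. The lowest value in each library was that of plasma-like cells, 5.58 (1.15 to 16.3), 11.4 (4.19 to 24.9) and 17.1 (4.65 to 43.7).

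*Hk2* (chr6:82725025-82774454, − strand) encodes hexokinase 2, which traps glucose in the cell by phosphorylating it. With all cells included, it was the one enzyme gene with over 1.5-fold more RNA in non-dividing than in dividing GC-like cells in all 3 libraries, but in WT that direction depended on the cells included. In dividing GC-like cells its level was 25.8 CPM (17.8 to 36.2) for 3′RR-*BCL2*, 38.8 (17.8 to 73.7) for Igκ-*BCL2* and 67.1 (45.6 to 95.2) for WT. For non-dividing GC-like cells the values were 101 (92.1 to 109.7), 79.5 (69.1 to 91.0) and 119.8 (88.0 to 159). In activated-like cells it was 20.5 (18.3 to 22.9), 18.9 (16.4 to 21.6) and 9.35 (8.24 to 10.6), and in resting-like cells 11.8 (7.003 to 18.7), 4.73 (2.36 to 8.47) and 6.58 (4.02 to 10.2). Non-dividing GC-like cells thus stood above resting-like cells by log2 ratios of 3.09 (2.41 to 3.86), 4.07 (3.20 to 5.09) and 4.19 (3.40 to 5.02). The resting-like values rest on 18, 11 and 20 UMIs, and the dividing GC-like values on 33, 9 and 31, of which 13 came from 1 cell in WT, where the level without that cell was 39.9 (23.7 to 63.1).

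The *Hk2* UMIs were held by a minority of GC-like cells. Among non-dividing GC-like cells, 155 of 687 for 3′RR-*BCL2*, 68 of 347 for Igκ-*BCL2* and 11 of 44 for WT had a *Hk2* UMI, and single cells held up to 22, 15 and 15. After thinning every cell to 2000 UMIs, 11.4% (9.09 to 14.1), 8.26% (5.56 to 11.7) and 14.6% (5.57 to 29.2) of non-dividing GC-like cells had a *Hk2* UMI, against 1.87%, 1.18% and 0.902% of resting-like cells thinned alike. These are exact binomial intervals, and at equal depth those of the 2 classes did not overlap in any library. For dividing GC-like cells thinned alike the share was 5.13% (1.90 to 10.8), 0% (0 to 14.8) and 8.51% (2.37 to 20.4). These intervals overlapped those of non-dividing GC-like cells in all 3 libraries. Unthinned, 10 of 404, 9 of 642 and 16 of 832 resting-like cells had one, at the lower depth given above. Thinning left out 4, 0 and 1 dividing GC-like, 40, 8 and 3 non-dividing GC-like and 30, 48 and 56 resting-like cells that were shallower. In WT, 15 of the 47 *Hk2* UMIs of non-dividing GC-like cells came from 1 cell of 2461 UMIs, and without it the level was 82.1 (56.2 to 116). Shallow cells stood higher in 3′RR-*BCL2*, where non-dividing GC-like cells under 4000 UMIs stood at 173 CPM of *Hk2* (135 to 217), against 94.1 (85.5 to 103) in those of at least 4000 UMIs. In Igκ-*BCL2* both depths were close, at 85.8 (44.3 to 149.9) under 4000 UMIs and 79.1 (68.5 to 91.0) at or above it. The 8 shallow WT cells stood at 841 (481 to 1365), against 83.1 (56.4 to 118) in the 36 deeper ones, but 15 of their 16 *Hk2* UMIs came from 1 cell.

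*Aldoa* (chr7:126795234-126800751, − strand) encodes aldolase A, which splits fructose 1,6-bisphosphate into a pair of triose phosphates. Its level passed 1.5-fold of resting-like cells in fewer classes than that of most enzyme genes here. It was 166 (144 to 189.6), 134 (90.9 to 189.9) and 186 (149 to 229.8) CPM in dividing GC-like cells of 3′RR-*BCL2*, Igκ-*BCL2* and WT, and 172 (161 to 184), 170.0 (155 to 187) and 232 (187 to 285) in non-dividing GC-like cells. It was 129 (111 to 148), 121 (107 to 136) and 128 (115 to 141) in resting-like cells. The non-dividing GC-like ratio passed 1.5-fold for WT only, at a log2 value of 0.86 (0.52 to 1.19), against 0.42 (0.20 to 0.65) for 3′RR-*BCL2* and 0.49 (0.27 to 0.71) for Igκ-*BCL2*. In plasma-like cells, where single cells weigh heavily, the level was 219 (182 to 263), 108 (82.2 to 141) and 196 (144 to 262), with log2 ratios to resting-like cells of 0.77 (0.43 to 1.11), −0.16 (−0.59 to 0.26) and 0.62 (0.15 to 1.06).

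*Tpi1* (chr6:124810586-124814296, − strand) encodes triosephosphate isomerase, which interconverts the triose phosphates. Its level was highest in dividing GC-like cells. In dividing GC-like cells it was 174 CPM (152 to 199) for 3′RR-*BCL2*, 173 (123 to 235) for Igκ-*BCL2* and 154 (119.96 to 194) for WT. Among non-dividing GC-like cells it was 66.7 (59.8 to 74.2), 56.3 (47.6 to 66.1) and 79.0 (53.7 to 112), and in resting-like cells 25.6 (18.2 to 35.0), 34.0 (26.9 to 42.4) and 26.0 (20.6 to 32.4). The log2 ratio of dividing GC-like over resting-like cells was 2.77 (2.27 to 3.30), 2.34 (1.76 to 2.91) and 2.56 (2.08 to 3.04). No library had a dividing interval that overlapped its non-dividing interval.

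*Gapdh* (chr6:125161715-125166467, − strand) encodes glyceraldehyde 3-phosphate dehydrogenase, which couples the oxidation of the triose to the reduction of NAD+. In dividing GC-like cells its level was 1156 CPM (1098 to 1217) for 3′RR-*BCL2*, 1394 (1246 to 1554) for Igκ-*BCL2* and 1170.3 (1074 to 1273) for WT. In non-dividing GC-like cells it was 554 (533 to 575), 504 (477 to 531) and 512 (444 to 588). In activated-like cells it was 321 (312 to 329.99), 329 (318 to 339.6) and 294 (287 to 300.0), and in resting-like cells 259 (234 to 286), 222 (203 to 242) and 199 (183 to 216). *Gapdh* is widely used as a reference gene, yet within these libraries it differed between dividing GC-like and resting-like cells by log2 ratios of 2.16 (1.996 to 2.32), 2.65 (2.45 to 2.85) and 2.56 (2.39 to 2.73). It took 49.3%, 54.5% and 46.0% of the UMIs of the 10 genes in dividing GC-like cells, against 30.6%, 29.3% and 26.0% in resting-like cells. Many near-identical copies of *Gapdh* exist in the mouse genome, and reads they share with it were not resolved here.

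*Pgk1* (chrX:106187100-106203699, + strand) encodes phosphoglycerate kinase 1, the first ATP-producing enzyme of the pathway, and is X-linked. Its level was 145 (125 to 168), 117 (76.8 to 169.5) and 147 (114 to 186) CPM in dividing GC-like cells of 3′RR-*BCL2*, Igκ-*BCL2* and WT. It was 72.2 (65.0 to 80.0), 55.9 (47.2 to 65.7) and 81.6 (55.8 to 115) in non-dividing GC-like cells and 56.5 (45.2 to 69.7), 48.6 (40.1 to 58.5) and 48.7 (41.2 to 57.2) in resting-like cells. Dividing GC-like cells exceeded resting-like cells by log2 ratios of 1.37 (0.99 to 1.75), 1.26 (0.60 to 1.88) and 1.60 (1.16 to 2.02). In resting-like cells the level of this X-linked gene in the *Xist*-containing 3′RR-*BCL2* library differed from WT by a log2 ratio of 0.21 (−0.19 to 0.61), which counting error spans.

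*Pgam1* (chr19:41911923-41918660, + strand) encodes phosphoglycerate mutase 1, which moves the phosphate group within phosphoglycerate. Its level was 131 (112 to 153), 155 (109 to 215) and 223 (182 to 270.2) CPM in dividing GC-like cells and 118 (108 to 128), 105 (92.6 to 118) and 117 (85.9 to 156) in non-dividing GC-like cells of 3′RR-*BCL2*, Igκ-*BCL2* and WT. It was 61.7 (49.9 to 75.5), 53.4 (44.4 to 63.6) and 58.6 (50.3 to 67.8) in resting-like cells. Unlike *Gapdh*, *Pgam1* in 3′RR-*BCL2* reached nearly its dividing level in non-dividing GC-like cells, with a dividing over non-dividing log2 ratio of 0.16 (−0.10 to 0.41). For Igκ-*BCL2* the same ratio was 0.57 (0.03 to 1.08), and for WT it was 0.93 (0.41 to 1.46).

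*Eno1* (chr4:150236721-150248879, + strand) encodes enolase 1, which forms phosphoenolpyruvate. It varied little over the GC-like, activated-like and resting-like classes. Its level was 115 (97.1 to 135), 134 (90.9 to 189.9) and 97.3 (71.0 to 130.3) CPM in dividing GC-like cells and 92.6 (77.9 to 109), 86.5 (74.9 to 99.3) and 76.7 (67.1 to 87.2) in resting-like cells of 3′RR-*BCL2*, Igκ-*BCL2* and WT. Only the Igκ-*BCL2* ratio, 0.63 (0.03 to 1.18) on the log2 scale, passed 1.5-fold. A near-identical copy, *Eno1b*, makes its counts uncertain.

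*Pkm* (chr9:59656368-59679375, + strand) encodes the muscle type of pyruvate kinase, the second ATP-producing enzyme, and its M1 and M2 splice forms cannot be told apart in counts per gene. Its level was 204 (180.1 to 230.4), 242 (183 to 314) and 257 (213 to 308) CPM in dividing GC-like cells of 3′RR-*BCL2*, Igκ-*BCL2* and WT. It was 149 (139 to 160.0), 134 (120.3 to 149) and 145 (110.1 to 188) in non-dividing GC-like cells and 97.1 (82.1 to 114), 89.5 (77.7 to 103) and 100.3 (89.4 to 112) in resting-like cells. Dividing GC-like cells exceeded resting-like cells by log2 ratios of 1.07 (0.77 to 1.37), 1.43 (0.98 to 1.86) and 1.36 (1.04 to 1.67), and these intervals overlapped between libraries.

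*Ldha* (chr7:46841475-46855627, + strand) encodes lactate dehydrogenase A, which turns pyruvate into lactate and regenerates NAD+. Its level was 204 (180.1 to 230.4), 159.7 (112 to 220.1) and 225 (184 to 273) CPM in dividing GC-like cells of 3′RR-*BCL2*, Igκ-*BCL2* and WT. For non-dividing GC-like cells the values were 136 (126 to 146), 113 (101 to 127) and 257 (209.7 to 313). The WT value alone was above that of its dividing cells, but within counting error. The WT dividing over non-dividing log2 ratio was −0.19 and ran between −0.47 and 1.13 over the alternatives, so its direction is not settled. In activated-like cells it was 134 (128 to 140.1), 112 (106 to 118) and 147 (142 to 151), and in resting-like cells 91.2 (76.7 to 108), 68.4 (58.2 to 79.9) and 96.4 (85.7 to 108). *Ldha* was the gene of the 10 with an activated-like over resting-like interval above 0 and a log2 ratio over 0.5 in each library, at 0.56 (0.31 to 0.81), 0.71 (0.47 to 0.96) and 0.60 (0.43 to 0.78).

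Dividing and non-dividing GC-like cells pass the same GC marker minimum within a library and differ in their proliferation markers. *Tpi1*, *Gapdh* and *Pgk1* were over 1.5-fold higher in dividing cells of all 3 libraries, and *Hk2* was over 1.5-fold lower in all 3. In 3′RR-*BCL2* 4 of 10 genes were higher (*Tpi1*, *Gapdh*, *Pgk1* and *Ldha*), against 16.9% of all genes, and 2 were lower (*Slc2a1* and *Hk2*), against 18.3%. In Igκ-*BCL2* 4 of 10 were higher (*Tpi1*, *Gapdh*, *Pgk1* and *Pkm*), against 21.4%, and 2 were lower (*Slc2a1* and *Hk2*), against 30.3%. In WT 5 of 9 were higher (*Tpi1*, *Gapdh*, *Pgk1*, *Pgam1* and *Pkm*), against 24.5%, and 1 was lower (*Hk2*), against 16.2%. The log2 ratio of *Gapdh* was 1.06 (0.97 to 1.15), 1.47 (1.29 to 1.65) and 1.19 (0.96 to 1.43), and that of *Tpi1* 1.39 (1.14 to 1.63), 1.62 (1.07 to 2.13) and 0.96 (0.33 to 1.62). That of *Hk2* was −1.96 (−2.52 to −1.45), −1.03 (−2.18 to −0.08) and −0.84 (−1.54 to −0.15). Among cells of at least 4000 UMIs, a limit applied to this ratio after seeing the data, the *Hk2* ratio was −1.91, −1.01 and −0.25 (−1.02 to 0.51 in WT). In WT, 15 of the 16 *Hk2* UMIs of shallow non-dividing GC-like cells came from 1 cell, so shallow depth and that cell cannot be told apart here. Without the cell with the most *Hk2* UMIs in each of the 2 classes, left out after seeing the data, the WT ratio was −1.04 (−1.96 to −0.16). Over the alternatives tried it ran between −1.72 and 0.29, and so its direction is not settled in WT. The WT ratio of *Tpi1* ran between 0.38 and 1.65 over the alternatives and so did not always pass 1.5-fold. The lowest WT ratios of *Gapdh* and *Pgk1* were 0.60 and 0.61, just past 1.5-fold.

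**Figure D3:**
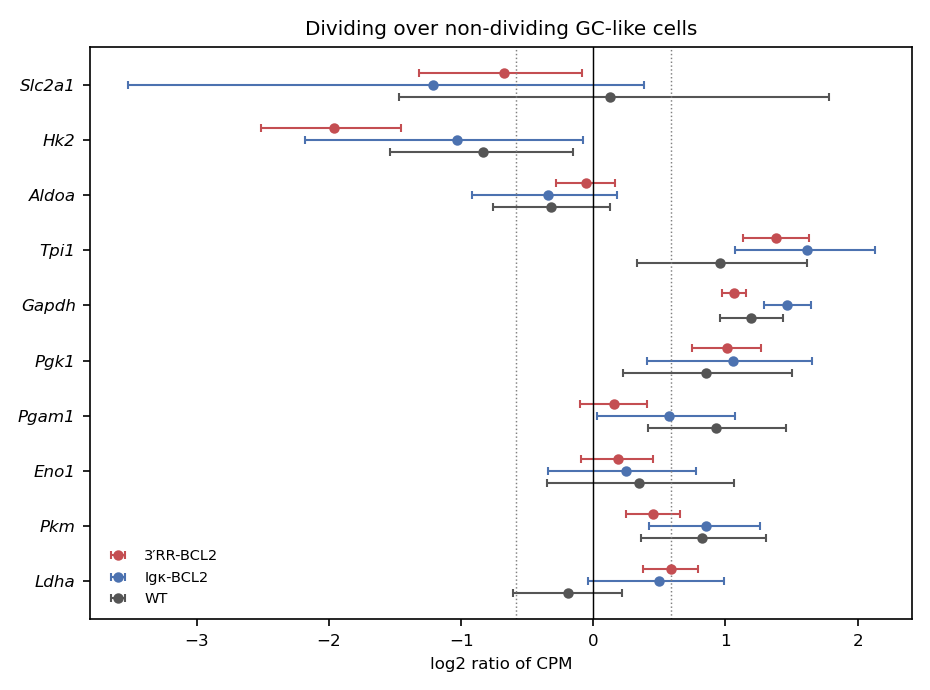
Log2 ratio of each glycolysis gene in dividing over non-dividing GC-like cells, by library, with 95% intervals and dotted lines at 1.5-fold. *Tpi1*, *Gapdh* and *Pgk1* lie to the right in all 3 libraries (0.96 to 1.62, 1.06 to 1.47 and 0.85 to 1.06), and *Hk2* lies to the left in all 3 (−1.96, −1.03 and −0.84).

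Per cell, the summed glycolysis RNA overlapped widely between classes. Of 2000 UMIs per thinned cell, the 10 genes took a median of 4 UMIs in dividing GC-like cells of 3′RR-*BCL2* (quartiles 3 and 6), 5 in Igκ-*BCL2* (3.5 and 8) and 4 in WT (2.5 and 7). In non-dividing GC-like cells the medians were 3, 2 and 2, and in resting-like cells 2, 1 and 1. The quartile ranges of dividing and non-dividing GC-like cells overlapped in every library, so the class difference was one of averages and not a separation of cells.

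Plasma-like cells stood at 1879.95 CPM of the 10 genes (1766 to 1999.5) for 3′RR-*BCL2*, 1054 (969 to 1146) for Igκ-*BCL2* and 1527 (1373 to 1694) for WT, but these sums turned on single cells. Of the 10-gene UMIs of plasma-like cells, 1 cell held 311 of 1011 for 3′RR-*BCL2*, 305 of 554 for Igκ-*BCL2* and 192 of 358 for WT, and these cells had 72787, 78332 and 42817 UMIs in all. Without that cell, left out after seeing the data, the levels were 1505 (1396 to 1621), 557 (489.96 to 631) and 866 (739.6 to 1009). Over resting-like cells, 7 of 9 genes were over 1.5-fold higher for 3′RR-*BCL2*, against 12% of all genes, 5 of 9 for Igκ-*BCL2*, against 6.79%, and 6 of 10 for WT, against 11.7%. Without that cell the counts were 5, 0 and 2. The median log2 ratio of the genes was 1.12, 0.62 and 0.68 with it and 0.79, −0.76 and −0.13 without it. *Tpi1*, *Gapdh*, *Pgk1*, *Pgam1* and *Ldha* were counted as higher in all 3 libraries with every cell included, and *Slc2a1* as lower in all 3. *Gapdh* was at 783 CPM (709.8 to 861) for 3′RR-*BCL2*, 398 (346 to 456) for Igκ-*BCL2* and 639.9 (542 to 751) for WT. *Ldha* was at 234 (195 to 279), 119.9 (92.1 to 153) and 179 (129 to 242). *Eno1* was at 70.7, 40.0 and 46.9 CPM. Its log2 ratio to resting-like cells was −0.39 (−0.95 to 0.14) for 3′RR-*BCL2*, −1.11 (−1.84 to −0.46) for Igκ-*BCL2* and −0.71 (−1.73 to 0.16) for WT.

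The plasma-like class was mixed. The 6 plasma-like cells of 3′RR-*BCL2*, 2 of Igκ-*BCL2* and 2 of WT with at least 4 proliferation markers stood at 3445 (3167 to 3741), 3577 (3213 to 3972) and 3431 (2986 to 3924) CPM of the 10 genes. Immunoglobulin genes took 1.21%, 0.587% and 9.61% of their UMIs, and they held 2 to 10 GC markers for 3′RR-*BCL2*, 1 and 9 for Igκ-*BCL2* and 4 and 9 for WT. The 11, 14 and 5 plasma-like cells with at most 1 proliferation marker stood at 901 (796 to 1016), 486 (415 to 567) and 527 (396 to 687) CPM, while immunoglobulin genes took 33.5%, 46.7% and 46.1%. Of the 10-gene UMIs of the class, 566 of 1011, 351 of 554 and 213 of 358 therefore lay in cells with at least 4 proliferation markers. In Igκ-*BCL2*, 305 of the 351 came from the cell with 1 GC marker. Whether those cells are doublets was not tested. With immunoglobulin UMIs left out of the total, the cells with at most 1 proliferation marker stood at 1354 (1196 to 1527), 912 (778 to 1062) and 978 (735 to 1276) CPM, against 863, 771 and 780.3 in resting-like cells.

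**Figure D4:**
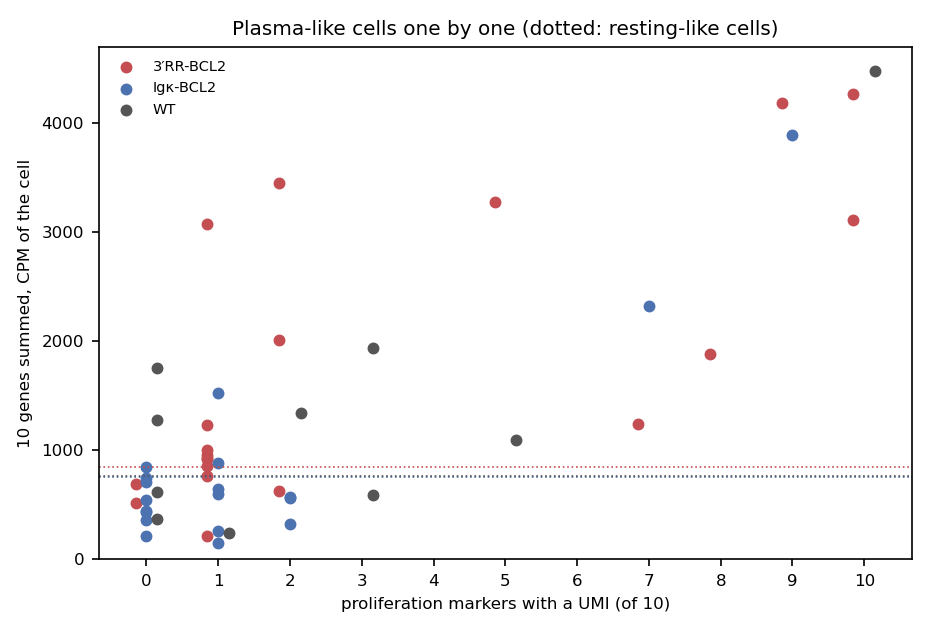
Each point is 1 plasma-like cell, by how many of the 10 proliferation markers had a UMI in it (x axis, libraries set slightly apart) and its summed CPM of the 10 glycolysis genes (y axis), with dotted lines at the level of resting-like cells of each library. Cells with at least 4 proliferation markers (6 for 3′RR-*BCL2*, 2 for Igκ-*BCL2* and 2 for WT) have medians of 3193, 3109 and 2787 CPM, against 917, 571 and 613 for cells with at most 1, and the ranges of single cells overlap in 3′RR-*BCL2* and WT.

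Outside the GC-like and plasma-like classes, activation markers were counted after thinning each cell to 2000 UMIs, a comparison added after seeing the data, and went with a small step in glycolysis RNA. Cells with 0, 1, 2, 3, 4 and at least 5 activation markers stood at 906, 957, 889, 929, 1059 and 964 CPM of the 10 genes in 3′RR-*BCL2*. The same series was 839, 824, 843, 905, 951 and 987 in Igκ-*BCL2* and 881, 851, 888, 917, 1005 and 1071 in WT. The log2 ratio of 4 over 0 markers was 0.23 (0.08 to 0.38), 0.18 (0.02 to 0.35) and 0.19 (0.08 to 0.30). *Ldha* was highest at the upper end of the series in each library. It was 106, 151 and 203 CPM at 0, 4 and at least 5 markers for 3′RR-*BCL2*, 80.9, 146 and 154 for Igκ-*BCL2* and 121, 146 and 263 for WT. *Hk2* in 3′RR-*BCL2* was 49.2 at 4 markers, against 12.2 at 0, but 23 of its 29 UMIs there came from 1 cell.

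The comparison of genotypes asked whether glycolysis RNA differed at the same class when *BCL2* was deregulated. Summed over the 10 genes, it differed little outside plasma-like cells. The log2 ratio of 3′RR-*BCL2* over WT was −0.12 (−0.22 to −0.02) in dividing GC-like, −0.13 (−0.24 to −0.01) in non-dividing GC-like, 0.03 (0.00 to 0.06) in activated-like and 0.14 (0.05 to 0.24) in resting-like cells. The log2 ratio of Igκ-*BCL2* over WT was 0.01 (−0.14 to 0.15), −0.27 (−0.39 to −0.15), −0.04 (−0.07 to −0.01) and −0.02 (−0.11 to 0.07) in the same classes. In plasma-like cells the ratios were 0.30 (0.12 to 0.48) for 3′RR-*BCL2* and −0.53 (−0.73 to −0.34) for Igκ-*BCL2*, with the single cells above included. Immunoglobulin genes, which count in the CPM total, took 20.03% of plasma-like UMIs in 3′RR-*BCL2*, 39.1% in Igκ-*BCL2* and 26.1% in WT. Plasma-like cells with at least 4 proliferation markers were 6 of 20, 2 of 19 and 2 of 10. The part of either difference in these summed ratios was not tested. The comparisons of both BCL2 libraries share the 1 WT library.

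Counted by gene, few passed 1.5-fold in either direction. In plasma-like cells it was 2 of 8 for 3′RR-*BCL2*, against 31.3% of all genes, and 3 of 8 for Igκ-*BCL2*, against 35.9%. The 2 were *Pgk1* and *Eno1*, both higher, and the 3 were *Aldoa*, *Gapdh* and *Pgam1*, all lower. In dividing GC-like cells it was 2 of 10 for 3′RR-*BCL2* (*Hk2* and *Pgam1*, both lower), against 20.6%, and 1 of 9 for Igκ-*BCL2* (*Hk2*, lower), against 26.6%. Among non-dividing GC-like cells it was 2 of 10 for 3′RR-*BCL2* (*Slc2a1* higher, *Ldha* lower), against 31.3%, and 3 of 10 for Igκ-*BCL2* (*Slc2a1* higher, *Hk2* and *Ldha* lower), against 29.7%. In activated-like cells it was 1 of 10 for each BCL2 library (*Hk2*, higher), against 7.84% for 3′RR-*BCL2* and 12% for Igκ-*BCL2*. In resting-like cells it was 1 of 10 for 3′RR-*BCL2* (*Hk2*, on 18 and 20 UMIs), against 11.9%, and 0 of 10 for Igκ-*BCL2*, against 12.8%. In every class, plasma-like cells included, these shares lay near or under the shares of all genes and are no result about the glycolysis genes. The Igκ-*BCL2* count in non-dividing GC-like cells was nevertheless 5 with the looser cell filter and with means over cells. The plasma-like counts also turned on a few cells and on the settings. Without the cell with the most UMIs of the 10 genes in each library, the 3′RR-*BCL2* count was 6 and the summed log2 ratio 0.80 (0.55 to 1.05), while over all alternatives the count ran between 0 and 6. The Igκ-*BCL2* count ran between 1 and 7. Shares of all genes under these alternatives are not given here, so these counts are no result about the glycolysis genes either.

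*Hk2* passed 1.5-fold of WT in several classes, and *Ldha* did so in non-dividing GC-like cells. *Hk2* in activated-like cells was at 20.5 CPM for 3′RR-*BCL2* and 18.9 for Igκ-*BCL2*, against 9.35 for WT, with log2 ratios of 1.13 (0.89 to 1.38) and 1.01 (0.74 to 1.28). In activated-like cells with 0 GC markers, a limit added after seeing the data, the ratios were 0.98 and 0.83. Without the cell with the most *Hk2* UMIs in each library they were 1.05 and 0.96. The summed GC markers of activated-like cells were 68.9, 64.2 and 39.8 CPM in 3′RR-*BCL2*, Igκ-*BCL2* and WT, and moved the same way. In dividing GC-like cells the *Hk2* ratio went the other way, at −1.38 (−2.13 to −0.62) for 3′RR-*BCL2* and −0.79 (−2.04 to 0.32) for Igκ-*BCL2* over WT, on 33 and 9 UMIs, against 31 in WT. The 3′RR-*BCL2* ratio ran between −1.79 and −0.38 over the alternatives, and without the cell with the most *Hk2* UMIs in each library it was −0.79 (−1.69 to 0.14). In non-dividing GC-like cells *Hk2* stood lower in both BCL2 libraries than in WT, by log2 ratios of −0.25 (−0.69 to 0.21) and −0.59 (−1.05 to −0.10), where 1 WT cell held 15 of 47 UMIs, and both ratios changed sign under some alternatives (−0.89 to 0.71 and −1.58 to 0.40). *Ldha* in Igκ-*BCL2* was below WT in all 5 classes, with log2 ratios of −0.58 (−1.17 to 0.02) in plasma-like, −0.49 (−1.08 to 0.06) in dividing GC-like, −1.18 (−1.51 to −0.84) in non-dividing GC-like, −0.39 (−0.48 to −0.30) in activated-like and −0.49 (−0.78 to −0.21) in resting-like cells. This direction was not particular to *Ldha*, since *Aldoa*, *Pgam1* and *Pkm* in Igκ-*BCL2* also stood below WT in all 5 classes. Their log2 ratios lay between −0.85 and −0.08, −0.74 and −0.13, and −0.45 and −0.09. For 3′RR-*BCL2* over WT the *Ldha* ratio was −0.92 (−1.23 to −0.61) in non-dividing GC-like cells and between −0.14 and 0.39 in the other classes. With 1 library per genotype, a difference between libraries and a difference between genotypes cannot be told apart.

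**Figure D5:**
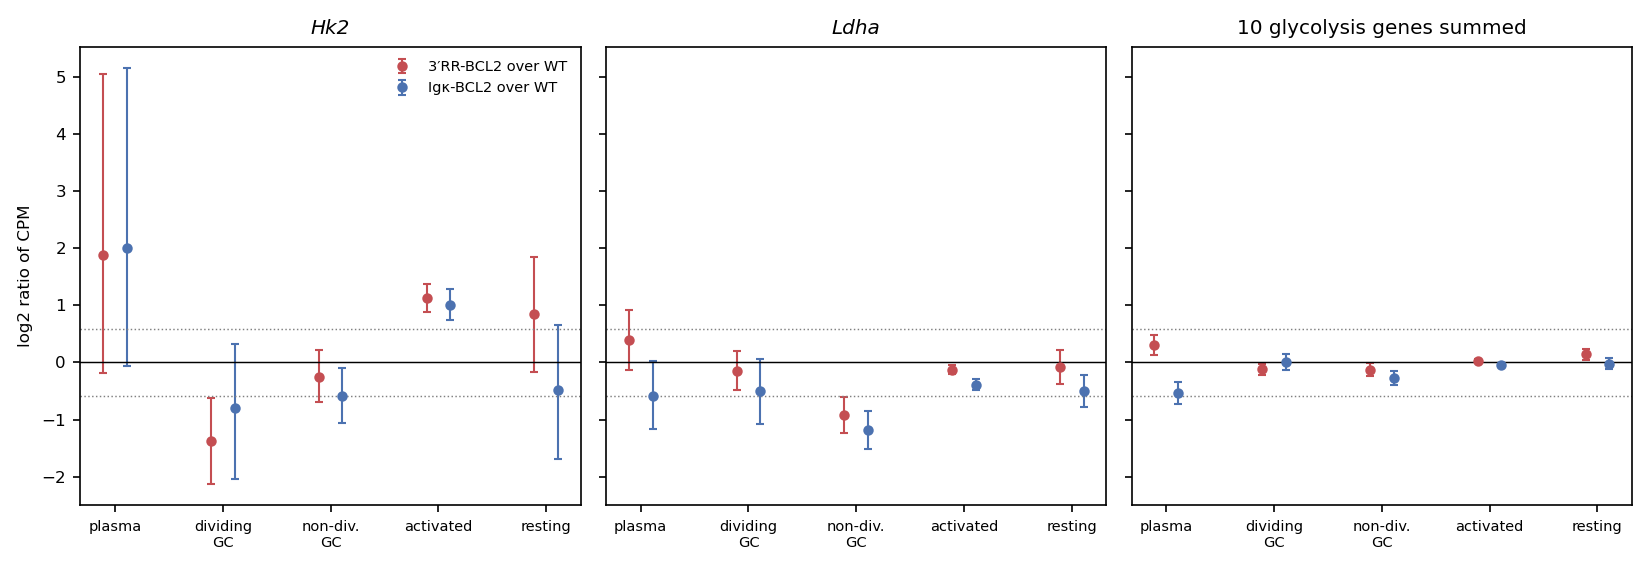
Log2 ratio of each BCL2 library over WT for the summed 10 glycolysis genes, *Hk2* and *Ldha*, by class, with 95% intervals and dotted lines at 1.5-fold. *Hk2* in activated-like cells lies above 1.5-fold for both BCL2 libraries (1.13 and 1.01), and *Ldha* of Igκ-*BCL2* lies below 0 in all 5 classes. *Aldoa*, *Pgam1* and *Pkm* of Igκ-*BCL2*, not shown, were below 0 in all 5 classes too.

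Of 32 further genes of the pathway and its regulation, 17, 17 and 18 had enough UMIs to compare dividing GC-like with resting-like cells in 3′RR-*BCL2*, Igκ-*BCL2* and WT. Of these 7, 9 and 6 were over 1.5-fold higher and 7, 5 and 5 lower. In non-dividing GC-like cells 6 of 20, 6 of 20 and 5 of 18 were higher and 5, 4 and 7 lower. In activated-like cells 2, 5 and 2 of 23 were higher and 3, 2 and 0 lower. In plasma-like cells 2 of 15, 1 of 17 and 3 of 18 were higher and 5, 6 and 8 lower. The wider list therefore went in both directions. All genes so measured did so too. The shares higher were 27%, 23.8% and 22.1% in dividing and 16.9%, 14.4% and 14.7% in non-dividing GC-like cells. They were 11.6%, 9.19% and 10.4% in activated-like and 12%, 6.79% and 11.7% in plasma-like cells. Lower were 1730 of 7628, 2799 of 8129 and 2655 of 8590 genes in dividing GC-like cells. In plasma-like cells it was 3116 of 7018, 5314 of 8130 and 4610 of 8513. No conclusion about the wider list is drawn from its counts.

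*Bpgm*, which makes 2,3-bisphosphoglycerate, was at 37.5, 51.8 and 36.8 CPM in dividing GC-like cells of 3′RR-*BCL2*, Igκ-*BCL2* and WT, against 7.88, 15.5 and 13.5 in resting-like cells. *Pdk3*, a kinase that inhibits pyruvate dehydrogenase, was at 49.3, 25.9 and 26.0, against 9.19, 8.61 and 8.22. *Pfkp*, the platelet type of phosphofructokinase, was at 51.6, 64.7 and 99.5, against 39.4, 19.8 and 32.2. These 3 genes stood higher in dividing GC-like cells, although the 3′RR-*BCL2* ratio of *Pfkp*, 0.39 (−0.14 to 0.92), did not pass 1.5-fold. The Igκ-*BCL2* ratio of *Pdk3*, 1.59 (−0.02 to 2.96) on 6 and 20 UMIs, had an interval that also spanned 0. *Slc16a1*, the lactate transporter MCT1, was at 28.9, 34.5 and 19.5, against 11.8, 11.6 and 7.57. *Slc2a3*, a second glucose transporter (GLUT3), went the other way, at 3.13, 4.32 and 4.33, against 28.2, 34.9 and 31.3, which are log2 ratios of −3.17 (−5.11 to −1.71), −3.01 (−8.33 to −0.49) and −2.85 (−5.92 to −0.96). *Gpi1*, glucose phosphate isomerase, was at 185, 216 and 199, against 116, 106 and 129.95. *Hk1*, the constitutive hexokinase, was between 4.32 and 17.5 in every class and library and its dividing GC-like over resting-like interval spanned 0 in all 3, while *Pfkl*, the liver type of phosphofructokinase, lay between 21.3 and 41.1. *Ldhb*, which encodes the other main lactate dehydrogenase subunit, was at 0 in most classes and libraries. *Hif1a*, encoding the HIF-1 alpha subunit, was at 112, 104 and 90.9 in dividing GC-like cells, against 68.9, 82.2 and 74.0 in resting-like cells.

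Over the 15 class by library values, the level of each gene was set against the sum of the other glycolysis genes on the scale log2(CPM + 5). Pearson's r was 0.958 for *Pkm*, 0.952 for *Pgam1*, 0.942 for *Tpi1*, 0.932 for *Gapdh*, 0.900 for *Pgk1* and 0.785 for *Ldha*. It was 0.563 for *Hk2*, 0.556 for *Aldoa*, 0.242 for *Eno1* and −0.461 for *Slc2a1*. The lower enzymes of the pathway apart from *Eno1* thus varied with the sum of the others, and the transporter did not. *Gapdh* took between 26.0% and 54.5% of the 10-gene UMIs of a class, so it weighs heavily in the sum for every other gene. In plasma-like cells 1 cell in each library held much of the sum. The points share 3 libraries and differ in depth and cell number, so these values are descriptions. Of 9904 genes with at least 200 UMIs, those most like the 10-gene sum were *Cox6c* (r = 0.984), *Pomp* (0.979), *Vdac3* (0.971), *Cox6b1* (0.968), *Ada* (0.967), *Ezh2* (0.966), *Psat1* (0.965), *Cks2* (0.964), *Lmnb1* (0.963) and *Atp5j2* (0.962). Among them *Cox6c*, *Cox6b1* and *Atp5j2* encode subunits of mitochondrial respiratory complexes, *Vdac3* encodes a channel of the outer mitochondrial membrane, and *Cks2* encodes a cell cycle protein.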

How the data were processed

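The authors deposited 1 filtered matrix of raw UMI counts per library, made from 10x 3′ v3.1 libraries with Cell Ranger 6.1.1 (mm10), per the submitters' processing notes. The glycolysis genes and marker lists were chosen with earlier results of these data known. Barcodes were kept with 800 to 4500 detected genes, no more than 20000 UMIs, a mitochondrial share up to 8%, a ribosomal protein share from 10% upward, and under 2 UMIs of Cd3 or C1q genes. Plasma-like cells had no upper limits and no ribosomal minimum. Classes were assigned in the order plasma-like, GC-like, activated-like, resting-like. UMIs were summed per class and library, divided by the total (CPM) and given with 95% exact Poisson intervals. Ratios had exact intervals of 2 Poisson counts. No p-value was computed, since there was 1 library per genotype. Named were all 10 genes, the 3 highest and lowest of the wider list per comparison with 8 fixed ones, from which the text gives a selection, and the 10 most similar genes. Alternatives changed cell filters, marker minimums, depth at classification, the total, the weight of cells, the plasma-like limits and the UMI minimum. Python 3.11.15, numpy 2.4.6, scipy 1.17.1, pandas 2.3.3 and matplotlib 3.10.9 were used. The scripts were tested on simulated data.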

Additional observations from a re-analysis of the deposited data

How the results depend on the processing

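No paired analysis was possible because each genotype had 1 library, and for the same reason no library could be left out. Of 249 counts of glycolysis genes over alternatives, 193 stayed within 1.5 times the reported count. The median ratio kept its sign in 150 of 153 comparisons of classes and in 85 of 96 of genotypes. Values that moved are given by alternative, and their cause was not tested. With the looser cell filter the counts were 5 in WT activated-like over resting-like cells and 7 in Igκ-*BCL2* dividing over non-dividing GC-like cells, and over WT 1 for 3′RR-*BCL2* and 2 for Igκ-*BCL2* in dividing GC-like, 5 for Igκ-*BCL2* in non-dividing GC-like and 1 for Igκ-*BCL2* in resting-like cells. With 1 marker more they were 2 in 3′RR-*BCL2* plasma-like and 4 in WT activated-like cells over resting-like cells, and over WT 4 for 3′RR-*BCL2* in plasma-like and 2 for Igκ-*BCL2* in dividing GC-like cells. With 1 marker fewer they were 9 in Igκ-*BCL2* plasma-like, 4 in WT non-dividing GC-like and 0, 1 and 0 in activated-like cells of 3′RR-*BCL2*, Igκ-*BCL2* and WT, and over WT 1 and 6 in plasma-like and 0 and 2 in dividing GC-like cells of 3′RR-*BCL2* and Igκ-*BCL2*, and 1 for Igκ-*BCL2* in non-dividing GC-like cells. With classes assigned at 2000 UMIs they were 1 in Igκ-*BCL2* plasma-like cells, where the median log2 ratio was −0.38, 0 in activated-like cells of all 3 libraries and 2 in WT dividing over non-dividing GC-like cells, and over WT 7, 2 and 1 for Igκ-*BCL2* in plasma-like, dividing GC-like and resting-like cells. With immunoglobulin, ribosomal and mitochondrial genes left out of the total, plasma-like counts over WT were 0 for 3′RR-*BCL2* and 1 for Igκ-*BCL2*. With means over cells the counts were 1 in Igκ-*BCL2* plasma-like cells and 1 in activated-like cells of Igκ-*BCL2* and of WT, and for Igκ-*BCL2* over WT 6, 2, 5 and 1 in plasma-like, dividing GC-like, non-dividing GC-like and resting-like cells. With the upper limits applied to plasma-like cells they were 4, 2 and 2 in 3′RR-*BCL2*, Igκ-*BCL2* and WT, and 1 and 1 for the BCL2 libraries over WT. With a minimum of 5 UMIs the count was 2 for Igκ-*BCL2* over WT in dividing GC-like cells. With a minimum of 50 UMIs it was 1, 1 and 0 for 3′RR-*BCL2* over WT in plasma-like, dividing GC-like and resting-like cells and 0 for Igκ-*BCL2* in dividing GC-like cells. The remaining alternatives were chosen after seeing the data. With at least 6 activation markers the activated-like counts were 4, 6 and 7. With resting-like cells allowed up to 3 activation or plasma markers they were 1 in 3′RR-*BCL2* and 1 in WT. Without the cell with the most UMIs of the 10 genes in each class, the plasma-like counts over resting-like cells were 0 in Igκ-*BCL2* (median −0.76) and 2 in WT (median −0.13), and for 3′RR-*BCL2* over WT 6 in plasma-like and 0 in resting-like cells. Over these alternatives the log2 ratio of *Hk2* in activated-like cells over WT was 0.88 to 1.36 for 3′RR-*BCL2* and 0.75 to 1.01 for Igκ-*BCL2*. The ratios of *Ldha* and of *Aldoa* for Igκ-*BCL2* over WT were below 0 in all 5 classes. Plasma-like cells and WT GC-like cells were few, and their values are the least certain.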
